A study of Mus musculus with 2 samples.

Results

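The paralogous clusters Mir23a, Mir27a, Mir24-2 and Mir23b, Mir27b, Mir24-1 were examined together with Mir3074-1, a hairpin on the strand opposite Mir24-1. These 7 miRNA genes were chosen by symbol among the 1973 gene rows of each count table, and rows were matched for 6 of them. No row was matched to Mir24-1, so the gene has no level of its own here. The samples were whole embryonic facial prominences of B6NCrl mice at embryonic day 10.5, profiled by microRNA sequencing of inserts below 30 nt. There was 1 group of 2 biological replicates, replicate 1 made from 69 embryos and replicate 2 from 51, each a pool of healthy embryos of both sexes. No genetic change or treatment is given in the labels, and no other stage or tissue was available for comparison, so levels are compared between hairpins and between the libraries. Because the tissue was taken whole, a higher share of expressing cells and more RNA per cell cannot be told apart.

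A miRNA hairpin is cut to a duplex with a 5p arm and a 3p arm, and the retained arm guides repression of messenger RNAs through its seed, bases 2 to 8. In each of these clusters the hairpins are read from 1 strand in the order Mir23, Mir27, Mir24, and their 3p arms belong to 3 seed families. The miRNAs are known from endothelial cells and the growth of blood vessels, miR-27 is also known as a repressor of adipocyte formation, and miR-24 as a regulator of cell proliferation.

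The mature arms are shown first because what differs between the paralogs decides which reads could be assigned to a hairpin. Sequences are from RefSeq (GRCm38.p6, the build of mm10), 5′ to 3′, with the seed in capitals. At least 1 mature arm was matched for each of the 7 genes. For Mir23b and Mir3074-1 only the 5p arm was matched, so the 3p arms of Mir23a and Mir23b were not compared. The 3p arms of Mir23a and Mir27a lie at chr8:84208563-84208583 and chr8:84208727-84208747, and that of Mir27b at chr13:63300760-63300780, all on the plus strand. The Mir24 hairpins hold the same 3p arm, at chr8:84208875-84208896 (Mir24-2) and chr13:63301251-63301272 (Mir24-1).
miR-23a-3p: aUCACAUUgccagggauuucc
miR-27a-3p: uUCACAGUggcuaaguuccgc
miR-27b-3p: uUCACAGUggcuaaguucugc
miR-24-3p: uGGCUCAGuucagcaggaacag
miR-24-2-5p: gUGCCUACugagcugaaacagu
miR-24-1-5p: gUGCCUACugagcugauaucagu

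The arms of the Mir27 paralogs separated by a single base on the 3p side. Counted from the 5′ end of miR-27a-3p, the only substitution to miR-27b-3p was C19U, and the first 18 bases were shared. The 5p arms of Mir27a and Mir27b matched at 14 of 22 positions. The hairpins of Mir23a and Mir23b shared an unbroken run of 20 bases, and so did those of Mir27a and Mir27b. Reads that lie wholly within such a run map to both clusters and were not assigned to a gene. For Mir24 this holds for a whole arm, since miR-24-3p is contained in both hairpins and the longest run they shared was 28 bases. The 5p arms of Mir24-1 and Mir24-2 matched at 17 of 22 positions, with U17A as the first difference from miR-24-1-5p to miR-24-2-5p, so these can be told apart. Reads of miR-24-3p that map to both loci are outside the gene counts, and every Mir24 value below leaves them out.

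The Mir23a cluster lies on chromosome 8 (84208518 to 84208921, mm10, plus strand) and spans 404 bases, with gaps of 79 bases between Mir23a and Mir27a and 56 bases between Mir27a and Mir24-2. It lies in no annotated host gene, except that the last bases of Mir24-2 overlap the first exon bases of the non-coding gene Gm26532 on the same strand (exon from 84208920). The Mir23b cluster lies on chromosome 13 (63300484 to 63301275, plus strand) and is more spread out, at 792 bases with gaps of 154 and 423 bases. It sits within 2010111I01Rik, the gene of aminopeptidase O, on the same strand, and within an intron of Fancc, a DNA repair gene, on the opposite strand. Mir23b is intronic in every annotated transcript of 2010111I01Rik that covers it. Mir27b overlaps an exon in the UTR of 1 transcript that is subject to nonsense-mediated decay, and Mir24-1 overlaps exons of 4 non-coding or nonsense-mediated decay transcripts.

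Levels are given as CPM, a hairpin's count on the gene's strand per 1000000 such counts of its library. The totals were 2853511 in replicate 1 and 3517226 in replicate 2. Means are over the libraries with the SD (n = 2), and intervals are exact Clopper-Pearson intervals at 95%, which cover counting error only as PCR copies of a molecule are counted apart. A count of 0 allows up to 3 counts, or 1.05 CPM in replicate 1 and 0.853 CPM in replicate 2. Each count sums the arms of its hairpin, so the arms cannot be separated.

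By assigned counts, Mir23b and Mir23a were the leading members. Mir23b had 25710 counts in replicate 1 and 29286 in replicate 2, or 9010 and 8326 CPM, with a mean of 8668 ± 483 CPM that ranked 25 among all genes. Mir23a had 11749 and 16470 counts, or 4117 and 4683 CPM, with a mean of 4400 ± 400 CPM at rank 49. Mir23b exceeded Mir23a in both libraries, and by far more than replicate 1 and replicate 2 differed in either hairpin. Mir652 with 8681 ± 631 CPM and Mir423 with 8501 ± 24.6 CPM were the genes next to Mir23b in mean level. Mirlet7g (4410 ± 1540 CPM) and Mir140, a miRNA of cartilage (4230 ± 406 CPM), were next to Mir23a. These neighbours were picked for nearness in mean level, so their lack of separation from the member by SD follows from that choice.

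Mir27b came next and Mir27a was far lower. Mir27b had 4135 and 4392 counts, 1449 CPM in replicate 1 and 1249 in replicate 2 (mean 1349 ± 142, rank 96). Mir27a had 391 and 486 counts, 137 CPM (95% interval 124 to 151) and 138 CPM (126 to 151), with a mean of 138 ± 0.815 CPM at rank 200. The libraries were alike for Mir27a, and its values lay well below both values of Mir27b. Mir323 (1382 ± 245 CPM) and Mir199b (1330 ± 295 CPM) flanked Mir27b in the order of means. Mir27a lay between Mir362 (145 ± 28.7 CPM) and Mir145a (132 ± 10.7 CPM).

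Of the Mir24 pair only Mir24-2 had a matched row. It had 316 and 381 counts, 111 CPM (98.9 to 124) in replicate 1 and 108 CPM (97.7 to 120) in replicate 2, with a mean of 110 ± 1.71 CPM at rank 208. Mir217 (110 ± 23.3 CPM) and Mir1981 (109 ± 3.21 CPM) were its neighbours. Mir24-2 was below Mir27a in both libraries, and the counting intervals of these genes did not overlap in either, though in replicate 1 the upper bound of Mir24-2 (123.6) lay just under the lower bound of Mir27a (123.8).

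The order Mir23b, Mir23a, Mir27b, Mir3074-1, Mir27a, Mir24-2 was the same in both libraries. Divided by hairpin length, the mean levels were 11714 CPM per 100 bases for Mir23b, 5867 for Mir23a, 1848 for Mir27b, 263 for Mir3074-1, 158 for Mir27a and 102 for Mir24-2, which left the order as it was. Inserts below 30 nt do not cover a whole hairpin, so this division is no check on the order. With 2 libraries no exact permutation test can reach 0.05, so the order has no test over samples.

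**Figure D1:**
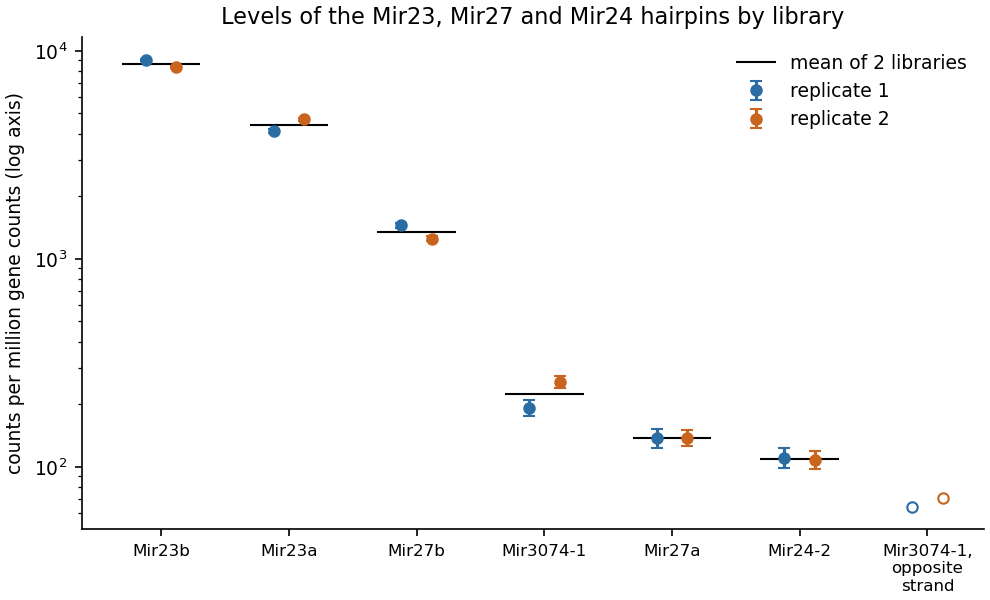
CPM on a log axis for the 6 hairpins with a matched row, in order of mean level, and for the opposite strand at Mir3074-1 (open points). Points are the 2 libraries with exact 95% counting intervals where drawn, and lines are their means; Mir23b and Mir23a lie at 8668 and 4400 CPM, and Mir27a and Mir24-2 at 138 and 110 CPM.

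Among the counts assigned to a hairpin, the clusters were led by their first hairpin, and more strongly so in the Mir23a cluster. These counts leave out miR-24-3p reads that map to both loci, and Mir24-1 has no count. The place of Mir24 in either cluster therefore cannot be told. Mir23a made up 94.3% of that cluster's counts in replicate 1 (95% interval 93.9% to 94.7%) and 95.0% in replicate 2 (94.7% to 95.3%). Mir27a took 3.14% and 2.80%, and Mir24-2 took 2.54% and 2.20%. Mir23b made up 86.1% (85.7% to 86.5%) and 87.0% (86.6% to 87.3%) of the counts of Mir23b and Mir27b, and Mir27b the other 13.9% and 13.0%. Mir23a was 30.0 times Mir27a in replicate 1 (27.2 to 33.3) and 33.9 times in replicate 2 (31.0 to 37.2). Mir23b was 6.22 times Mir27b (6.02 to 6.43) and 6.67 times (6.46 to 6.88). The step from Mir23 to Mir27 was thus larger in the Mir23a cluster in both libraries, by more than either library pair differed. In other miRNA clusters set beside these, the highest detected member had 1178 times the mean CPM of the lowest in Mir17-92 (Mir17 over Mir19b-1, an arm of which another hairpin also holds), 64.2 times in Mir143-145 (Mir143 over Mir145a), 16.0 times in Mir106b-25 and 1.66 times in Mir221-222.

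**Figure D2:**
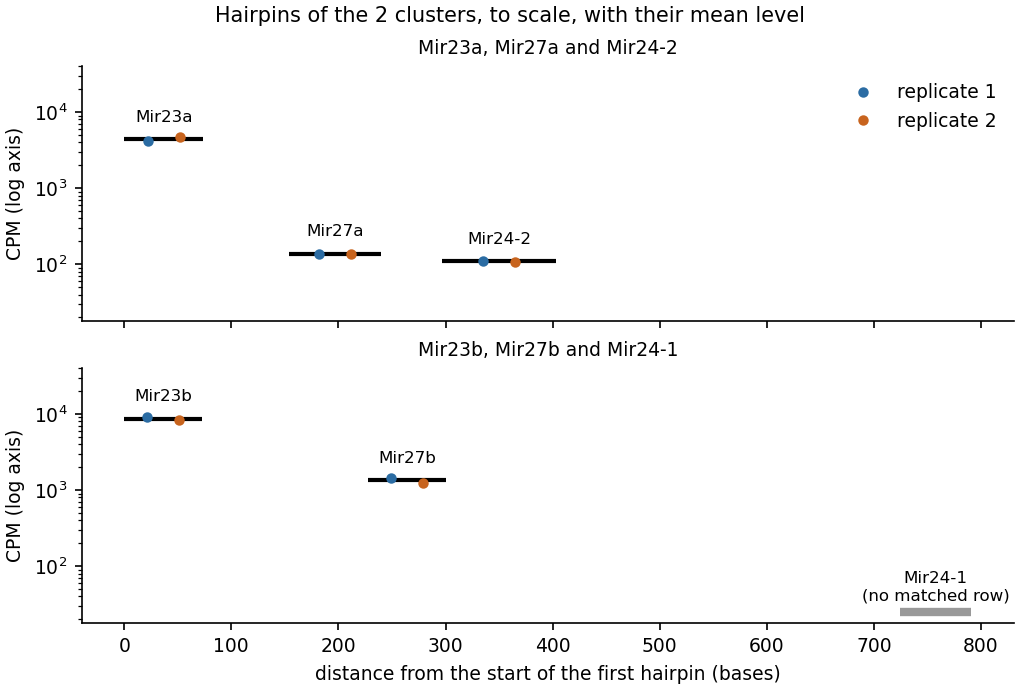
Mean CPM on a log axis (black bars, drawn over each hairpin's extent) against the distance in bases from the start of the first hairpin, for the Mir23a cluster (top) and the Mir23b cluster (bottom), with each library as a point. Levels fell from Mir23a at 4400 CPM to Mir27a at 138, and from Mir23b at 8668 CPM to Mir27b at 1349; Mir24-1 (grey, at the foot of the plot) has a position and no level.

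The Mir23b cluster had the higher counts, and the excess over its paralog was larger for Mir27 than for Mir23. The latter restates the larger step from Mir23 to Mir27 in the Mir23a cluster, since both use the same counts. Mir23b and Mir27b summed to 10459 CPM in replicate 1 and 9575 in replicate 2 (10017 ± 625), and Mir23a, Mir27a and Mir24-2 to 4365 and 4929 CPM (4647 ± 399). The ratio of the sums was 2.40 (2.35 to 2.45) in replicate 1 and 1.94 (1.91 to 1.98) in replicate 2. Mir23b stood to Mir23a as 2.19 (2.14 to 2.24) and 1.78 (1.74 to 1.81), a mean of 0.98 ± 0.21 on the log2 scale. Mir27b stood to Mir27a as 10.6 (9.53 to 11.8) and 9.04 (8.23 to 9.95), a mean log2 ratio of 3.28 ± 0.16. In both libraries the Mir27 ratio was above the Mir23 ratio and their counting intervals were apart. These ratios use 2 counts of 1 library and do not depend on its depth. They do depend on how readily each sequence is captured in a small RNA library, and on the reads within shared runs that were not assigned, neither of which was measured here.

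**Figure D3:**
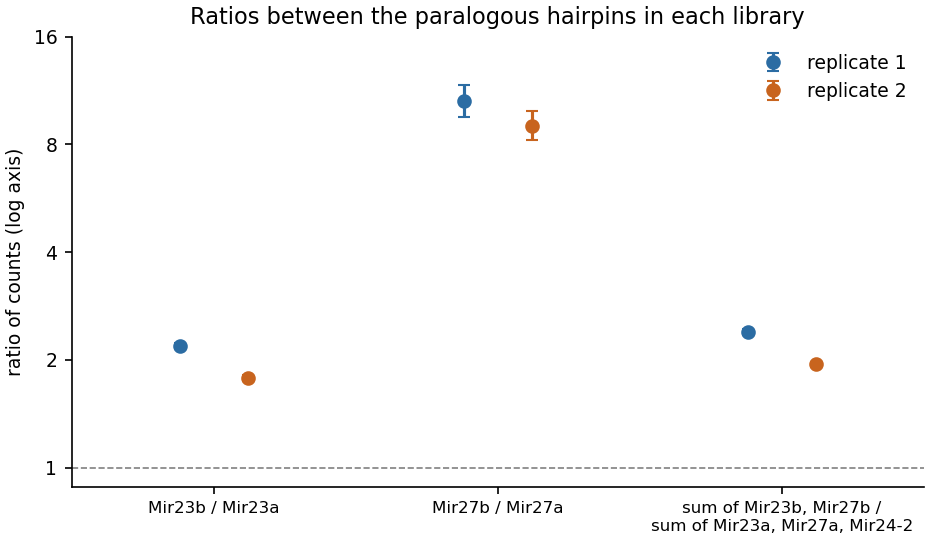
Ratio of counts (log axis) of Mir23b to Mir23a, Mir27b to Mir27a, and the sum of Mir23b and Mir27b to the sum of Mir23a, Mir27a and Mir24-2, in each library, with exact 95% counting intervals; the dashed line marks equality. All points lie above 1, and the Mir27 ratios (10.6 and 9.04) lie above the Mir23 ratios (2.19 and 1.78).

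Taken by pair, the hairpins of Mir23 summed to 13068 ± 83.6 CPM and those of Mir27 to 1487 ± 141 CPM. The sum of Mir23 was nearly the same in both libraries, with 13127 CPM in replicate 1 and 13009 in replicate 2, while its split between the paralogs differed. Mir23b held 68.6% (68.2% to 69.1%) of the Mir23 counts in replicate 1 and 64.0% (63.6% to 64.4%) in replicate 2. The miR-27 seed UCACAGU starts at base 1 of miR-128-3p, 1 base earlier than in miR-27. Its hairpins, known from neurons, were low here, with 68.9 ± 6.27 CPM for Mir128-1 and 11.8 ± 2.18 CPM for Mir128-2. These hairpins hold the same 3p arm, so their counts too leave out reads mapping to both. The miR-24 seed GGCUCAG was also at bases 2 to 8 of miR-5124b, miR-6369, miR-6410 and miR-6413, and their hairpins had 0 counts in both libraries.

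Mir3074-1 (chromosome 13, 63301199 to 63301283, minus strand in GENCODE M21) had reads on both strands. Its hairpin covers all 68 bases of Mir24-1 in the reverse orientation, as the hairpins below show, with miR-24-3p in capitals in Mir24-1 (chr13:63301208-63301275) and miR-3074-5p in capitals in Mir3074-1 (chr13:63301199-63301283).
Mir24-1: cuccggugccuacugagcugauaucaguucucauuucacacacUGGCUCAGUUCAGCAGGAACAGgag
Mir3074-1: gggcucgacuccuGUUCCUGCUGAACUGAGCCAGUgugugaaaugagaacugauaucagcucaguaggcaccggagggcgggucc
In its row, 547 reads in replicate 1 and 896 in replicate 2 were counted on the gene's strand, or 192 and 255 CPM (223 ± 44.6, rank 167). Mir19a (224 ± 8.61 CPM) and Mir700 (222 ± 6.30 CPM) were the genes nearest in mean level. Another 183 and 250 reads were on the opposite strand, or 64.1 and 71.1 CPM. The gene's strand thus held 74.9% of the reads at Mir3074-1 in replicate 1 (71.6% to 78.0%) and 78.2% in replicate 2 (75.7% to 80.5%). Such a mixture was uncommon: of 400 genes with at least 20 reads over both strands and libraries, 14 (3.50%) had more than 10% of them on the opposite strand. At the paralogous locus, Mir24-2 had 316 and 381 reads on its own strand and 4 and 2 on the other.

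By the M21 strand, the opposite-strand reads at Mir3074-1 are those on the strand of Mir24-1, and they came to fewer CPM than Mir24-2 in both libraries. The tables were counted on GENCODE M4 and list Mir3074-1 with another identifier version than M21 does. The strand that M4 gives the gene was not available, so which strand column belongs to Mir24-1 cannot be told from these values. The same version change is listed for Mir23b and Mir27b, where all reads were on the gene's strand and 0 on the other. Most reads were on the opposite strand in 1 of 47 genes with a changed version and at least 20 reads, and in 9 of 353 such genes with an unchanged version. miR-3074-5p is held by both Mir3074-1 and Mir3074-2, the hairpin opposite Mir24-2, so reads of this arm that map to both are outside the counts as well.

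The libraries differed for 4 of the 6 members beyond counting error, 2 in each direction. The counts of 449 genes that reached 10 over both libraries went into exact binomial tests, two-sided and adjusted after Benjamini and Hochberg, with the totals setting the expected share, and 40.3% of all tested genes passed at 0.05 (20.0% higher and 20.3% lower in replicate 2). The test compares these libraries and not conditions, and with so high a background the members' count does not set them apart. Mir23a was higher in replicate 2, with a log2 ratio of 0.19 (0.15 to 0.22, adjusted exact p = 9.44e-26). Mir23b was lower, with a log2 ratio of -0.11 (-0.14 to -0.09, adjusted exact p = 2.00e-19), and Mir27b had a log2 ratio of -0.21 (-0.28 to -0.15, adjusted exact p = 3.99e-11). Mir3074-1 differed most, with a log2 ratio of 0.41 (0.26 to 0.57, adjusted exact p = 5.62e-07). This is the value of its row, and whether the strand counted there is that of Mir24-1 cannot be told. Mir27a, at 0.01 (-0.18 to 0.21, adjusted exact p = 0.982), and Mir24-2, at -0.03 (-0.25 to 0.19, adjusted exact p = 0.892), did not pass.

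In size these differences lay within the spread of other genes. Across the 320 genes whose mean reached 10 CPM, the log2 ratio had an SD of 0.39 and a median of 0.02, and the median absolute ratio was 0.18. The absolute ratio of Mir3074-1 was above that of 79.7% of these genes, that of Mir27b above 57.2%, of Mir23a above 50.9% and of Mir23b above 31.3%. The median log2 ratio of the 6 members was -0.01, beside 0.01 over all tested genes. Members of 1 cluster share a transcript and are not independent.

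**Figure D4:**
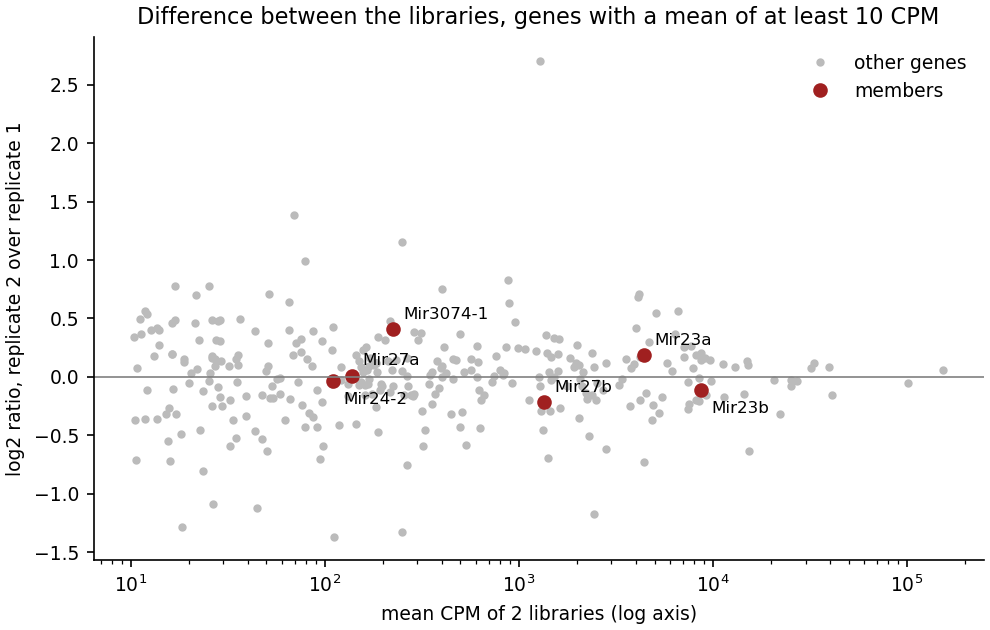
The log2 ratio of CPM in replicate 2 over replicate 1 against mean CPM (log axis) for the 320 genes whose mean reached 10 CPM, with the 6 members in red. Mir3074-1 (0.41) and Mir23a (0.19) lie above 0 and Mir27b (-0.21) and Mir23b (-0.11) below it, all within the cloud of other genes (grey).

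Markers of the tissue's cell types were measured beside these values. The mesenchymal list (5 of 5 detected) summed to 21520 CPM in replicate 1 and 19066 in replicate 2, and the epithelial list (7 of 7) to 28691 and 23965 CPM. The endothelial marker Mir126a had 31642 and 34369 CPM, and the smooth muscle list, with 2 of 3 detected and Mir145b at 0, had 9187 and 7975 CPM. Mir126a, Mir23a and Mir3074-1 were thus higher in replicate 2, and the mesenchymal, epithelial and smooth muscle sums were lower there together with Mir23b and Mir27b. Mir27a and Mir24-2, of the same cluster as Mir23a, went with neither, at log2 ratios of 0.01 and -0.03. The part of these cell types in the members' differences was not tested. Lists of other cell types and regions had lower sums, and some differed more between the libraries. The erythroid list (3 of 3 detected) had 420 CPM in replicate 1 and 205 in replicate 2, mostly through Mir451a, a miRNA of red blood cells (359 and 143 CPM). The Hox list (4 of 5) had 360 and 609 CPM, with Mir10a at 156 and 347 CPM, and the leukocyte list (2 of 2) had 429 and 419 CPM. The neural list (1 of 5) had 42.4 and 37.2 CPM and the striated muscle list (1 of 4, with 2 at 0) 26.3 and 10.8 CPM. Mir9, Mir124, Mir1a and Mir133a have copies with a common mature arm, whose reads are outside the counts as for Mir24, so these sums are no measure of those cell types. Such a shared arm is also held by 3 of the 5 mesenchymal markers (Mir199a-1, Mir199a-2 and Mir199b) and by 2 Hox markers (Mir196a-1 and Mir196a-2). The mesenchymal and Hox sums thus leave out such reads as well. Of 17 matched vessel and mesenchyme miRNAs, 14 were detected and tested, 1 was higher in replicate 2 (Mir126a) and 4 were lower, with a median log2 ratio of -0.15. Over all tested genes 20.0% were higher and 20.3% lower, with a median of 0.01. Those 4 were Mir143, of smooth muscle, with a log2 ratio of -0.20, Mir214, from mesenchyme, with -0.15, Mir140 with -0.20 and Mir199b with -0.46. At least 7 of the 17, Mir199b among them, hold an arm shared with another hairpin, so their counts are incomplete in the same way.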

How the data were processed

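MicroRNA sequencing libraries of 2 pools of facial prominences were counted by the authors, and their values are raw read counts per gene on mm10 with GENCODE M4, per the deposited text files. The aligner is not given in the sources used here. Of all reads, 41.8% and 40.7% were counted on a gene's strand. The 4 summary lines name no gene and were left out of the totals. They hold 58.2% and 59.3% of reads, of which reads mapping to several places were 27.6% and 25.9% of all reads. In all 1973 genes the count on either strand was the sum of the other columns, and 0 reads were ambiguous.

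Symbols, coordinates and hosts came from GENCODE M21 by identifier without version (1894 of 1973 matched), and sequences from RefSeq. CPM used the count on the gene's strand. Log2 ratios used a pseudocount of 0.5 CPM, the detection limit was 10 counts in each library, and the exact binomial test, tested on simulated data, used SciPy 1.17.1. The simulated counts held counting error only, as the test assumes, so they do not cover other spread between the libraries. Normalization alternatives used edgeR 4.0.16 (TMM) and DESeq2 1.42.0 (size factors). With 1 group and 2 libraries no model across conditions was fitted. Genes were named by rule: the members, their neighbours in mean level, hairpins sharing a seed, and up to 3 companions. The fourth companion was added so that a small count is named in full. Members and lists were chosen with earlier results of these data known. The labels call the libraries biological replicates, and each was made from its own pool. The SD thus holds differences between pools together with those of library preparation and sequencing, which cannot be told apart.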

Additional observations from a re-analysis of the deposited data

Results flagged for a closer look

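Reads on the strand opposite a member were outside the main count and above the limit of 3 counts that a count of 0 allows at 2 loci. At Mir3074-1 they came to 183 in replicate 1 and 250 in replicate 2. At Mir24-2 there were 4 in replicate 1, and 2 in replicate 2, under the limit. Mir24-2 had 98.75% and 99.5% of its reads on its own strand, beside 97.6% over all genes in each library, so its opposite-strand share was below that background. The other 4 members had 0 reads on the opposite strand in both libraries.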

How the results depend on the processing

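Of the alternatives tried, 108 values moved by less than the spread between the libraries or kept their direction and side of the threshold, and 13 moved by more. With 2 libraries, leaving out 1 gives the value of the other, which always lies within that spread. Those alternatives could not move by more and are counted among the 108. With all reads as the denominator the sums fell to 1915 CPM (Mir23a cluster) and 4133 CPM (Mir23b cluster). At Mir3074-1 the opposite strand gave 67.6 CPM and both strands 291 CPM, against 223 CPM on the gene's strand. The direction and call of every member between the libraries were the same under TMM, DESeq2 size factors, the unstranded count and no minimum count. Other pseudocounts left the direction as it was, and the call does not use a pseudocount. Leaving out a replicate, the log2 ratio ranged from 0.83 to 1.13 for Mir23, from 3.17 to 3.40 for Mir27 and from 0.96 to 1.26 for the clusters. After the data were seen, Mir24-1 was also taken as either strand count of Mir3074-1, and the cluster ratio was recomputed without Mir24 hairpins. The log2 ratio of the clusters was then 1.12, 1.14 and 1.14, beside 1.11. None of these alternatives adds the miR-24-3p reads that map to both loci, so they do not show what those reads would change. No paired analysis was possible because there is 1 group. Depth limits Mir24-2, Mir27a and Mir3074-1 most.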
